A study of Mus musculus with 6 samples.

Results

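The aquaporin water channels examined here comprised 9 genes, *Aqp1*, *Aqp2*, *Aqp3*, *Aqp4*, *Aqp5*, *Aqp7*, *Aqp8*, *Aqp9* and *Aqp11*, out of 19938 genes with a probe set of their own among 30177 probe sets. They were chosen by gene symbol, and a gene with several probe sets would have been represented by that with the highest mean over the 6 arrays. Each of the 9 had 1 probe set, so this mean made no choice. The family itself was picked with earlier results of these arrays known, and the values below are therefore descriptions of these 6 arrays.

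Arrays were run on whole-intestine villi of 5-day-old mice (P5), with 3 replicates of *Trpm7*-intestine KO mutants (genotype *Trpm7* fl/fl;Villin1-Cre) and 3 control replicates (*Trpm7* fl/fl littermates without Cre). *Trpm7* encodes a cation channel fused to a kinase, and both genotypes carry its floxed alleles. The Villin1 promoter drives Cre in epithelial cells along the whole intestine, so the other cells of a villus keep *Trpm7*. The labels give a C57BL/6 background and an unknown sex, whereas the methods place the floxed line and the Cre line on different strains. No drug or diet was applied to these pups, and the study counts the profiled samples as littermates, while the labels tie no replicate to an animal. *Trpm7* itself had log2 signals of 8.03, 7.79 and 7.88 in mutant replicates 1, 2 and 3, against 9.11, 8.96 and 9.03 in control replicates 1, 2 and 3, a change of -1.13 (adjusted p = 0.00019 from limma). Replicates are listed in this order throughout, and limma's adjusted p-values come from 1 fit over all probe sets. By qPCR, the study could barely detect wild-type *Trpm7* transcripts in mutant villi. Whether the *Trpm7* probe set also reads the transcript left by the deletion was not examined, so its change is no measure of intact *Trpm7*. Control replicates 2 and 3 carried both *Xist* (9.82 and 9.66) and the Y-linked *Uty* (7.64 and 7.72), whereas mutant replicates 2 and 3 had the Y-linked signal without *Xist*, and replicate 1 of either genotype had *Xist* without it. With 3 replicates a group, an exact two-sided permutation test of a single gene cannot give a p below 0.1.

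Aquaporins are membrane channels that assemble as tetramers, with a water pore in each subunit. Water moves through them along osmotic gradients, which in the gut are set up by salt, sugar and chloride transport. Classical members such as *Aqp1*, *Aqp2*, *Aqp4* and *Aqp5* conduct mainly water, the aquaglyceroporins *Aqp3*, *Aqp7* and *Aqp9* also pass glycerol, and *Aqp8* passes water, ammonia and hydrogen peroxide. *Aqp11* is a distant relative that resides in the endoplasmic reticulum.

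Among the 9 aquaporins, *Aqp8* fell and *Aqp1* rose in mutant villi, and the other 7 did not pass the test. In all, 2 of 9 members (22.2%) were called (adjusted p of 0.05 or less). The share was 16.9% over all probe sets (8.04% that rose and 8.82% that fell) and 19.5% over the 19938 genes. Both aquaporin calls exceeded 2-fold, as did 2.53% of all probe sets. The mutant and control values did not overlap for 3 of 9 members (33.3%), against 34.5% of all probe sets and 37.5% of the genes. The share of the family without overlap therefore lay near that of the whole array. The median change of the 9 members was 0.09 on the log2 scale, against 0.00 over the 19938 genes. Most members were thus close to their control level, and the 2 that were called went in opposite directions.

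**Figure D1:**
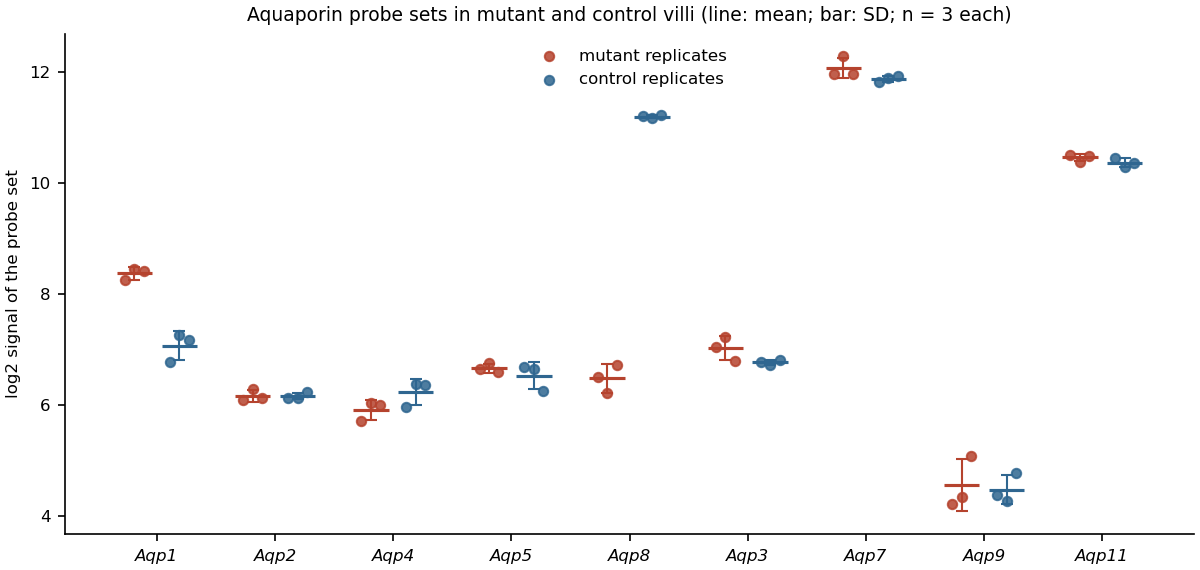
Log2 signal of each aquaporin probe set (vertical axis) in the 3 mutant (left, red) and 3 control (right, blue) replicates, with the mean (line) and SD (bar) of each group. *Aqp8* stands near 6.5 in mutant and 11.2 in control villi, *Aqp1* is higher in every mutant than in every control replicate, and the other genes lie close together.

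*Aqp8* is the water channel best known from the absorptive epithelium of the intestine, where it lies at and below the apical membrane. Its log2 signal was 6.51, 6.21 and 6.72 in mutant villi and 11.20, 11.16 and 11.21 in control villi. All mutant values lay far below the control values, and the control replicates differed from one another by no more than 0.05. The mean was 6.48 ± 0.26 in mutant villi and 11.19 ± 0.03 in control villi (SD, n = 3 each), a change of -4.71 (SE 0.12, 95% interval -5.00 to -4.42, adjusted p = 4.7e-06 from limma). On the linear scale this was a 26.2-fold lower signal (95% interval 21.4 to 31.9). Of the 30177 probe sets, *Aqp8* had the smallest p, the largest fall and the third largest change in either direction. Array medians ranged from 6.24 to 6.30, so the remaining signal of *Aqp8* in mutant villi was near the middle of each array, and whether it exceeded background was not tested.

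The first 250 bases upstream of the *Aqp8* start site are shown because this gene carries the largest fall (chr7:123462044-123462293, plus strand, GRCm38.p6, from RefSeq). Capitals mark the 1 match to TTTAT, the core letters bound by CDX factors of the intestinal epithelium.
Aqp8: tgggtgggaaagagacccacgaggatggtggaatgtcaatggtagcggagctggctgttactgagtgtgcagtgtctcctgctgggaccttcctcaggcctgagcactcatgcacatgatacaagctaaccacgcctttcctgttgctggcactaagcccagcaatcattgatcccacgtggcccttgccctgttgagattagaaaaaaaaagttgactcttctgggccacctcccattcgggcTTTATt
The match began 6 bases before the start site, on the strand of the gene. TTTAT was searched on both strands and occurred in 37.3% of 32851 mouse promoter windows of this length, so a single match is common. Neither GTTAAT, a core of the HNF1 site (6.43% of windows), nor TGACNNNGC, the antioxidant response element (10.2% of windows), was found in this window. Windows were used for 8 of the 9 members, and in addition to *Aqp8*, TTTAT occurred in those of *Aqp3* and *Aqp9*. These motifs were chosen after the values had been seen, and a match describes letters only.

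*Aqp1* is a constitutive water channel of capillary and lacteal endothelium, red blood cells and mesothelium. Its log2 signal was 8.24, 8.45 and 8.41 in mutant villi and 6.77, 7.26 and 7.16 in control villi. Every mutant value exceeded every control value, and control replicate 1 was the lowest of all. The mean was 8.37 ± 0.11 in mutant villi and 7.06 ± 0.26 in control villi (SD, n = 3 each), a change of 1.30 (SE 0.13, 95% interval 1.00 to 1.61, adjusted p = 0.00062 from limma). This corresponds to a 2.47-fold higher signal (95% interval 2.0 to 3.05), which placed *Aqp1* at position 270 among the rises of all probe sets.

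The same stretch of the *Aqp1* promoter is given for comparison with *Aqp8* (chr6:55336049-55336298, plus strand, GRCm38.p6, from RefSeq). It holds none of the 3 motifs and therefore has no capitals.
Aqp1: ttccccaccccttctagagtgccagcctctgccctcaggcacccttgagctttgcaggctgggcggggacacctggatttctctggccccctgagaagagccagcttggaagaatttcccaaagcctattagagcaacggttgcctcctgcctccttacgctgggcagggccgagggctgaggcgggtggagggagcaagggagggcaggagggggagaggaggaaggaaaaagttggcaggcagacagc
Its GC content was 62.0%, against 52.4% in the *Aqp8* window.

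Since *Aqp1* marks endothelium and mesothelium, the marker lists of these cells were set beside it. In these and all later cell type lists, counts are to be read against 8.04% of all probe sets that rose and 8.82% that fell. Of the 15097 probe sets with a mean at or above the median one, 5257 were called in a fit of their own. For lists of bright genes, the shares over all probe sets are thus a low comparison. Of 8 blood endothelial markers, none rose and 1 fell (*Tek*, the angiopoietin receptor, -0.81, adjusted p = 0.0059 from limma), and their summed linear signal was 2068 to 2497 in mutant villi and 2253 to 2400 in control villi. None of 4 measured lymphatic markers was called (431 to 477 in mutant villi, 426 to 466 in control villi). Between the genotypes, the sums of either endothelial list overlapped. Of 4 mesothelial markers, 1 rose (*Lrrn4*, 0.72, adjusted p = 0.021 from limma), and the sum was 502 to 640 in mutant villi and 366 to 514 in control villi. *Lrrn4* was called without control replicate 2 or mutant replicate 1 but not without any other replicate (adjusted p from 0.062 to 0.080). Both erythroid markers measured, of 6 listed, were not called (172 to 373 in mutant villi, 189 to 214 in control villi), and 1 was called without mutant replicate 1. The part of endothelial, mesothelial and erythroid cells in the *Aqp1* result was not tested, and in RNA from whole villi a change in the number of cells cannot be told apart from a change in RNA per cell.

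Marker lists of epithelial cells were set beside *Aqp8* in the same way, with counts to be read against the same shares of all probe sets. Enterocyte markers, most of which lie near the top of the signal range, had a sum of 82529 to 84097 in mutant villi and 87743 to 88568 in control villi. Of 6 such markers, 1 fell, the lactose-digesting enzyme *Lct* (-0.94, adjusted p = 0.0036 from limma). Most of the difference in the enterocyte sum came from *Lct*, since the list had a median change of -0.06 and its other 5 markers were not called. Colonocyte markers summed to 669 to 849 in mutant villi and 1140 to 1434 in control villi, where 1 of 6 fell (*Slc37a2*, a sugar-phosphate exchanger, -1.18, adjusted p = 0.0011 from limma). The difference in this sum came from *Slc37a2*, since the list had a median change of 0.08 and its other 5 markers summed to 291 to 358 in mutant villi and 267 to 305 in control villi. Markers of proximal small intestine fell for 5 of 6 genes (median -0.73), and markers of distal small intestine rose for 3 of 5 (median 0.93). The fall of the proximal list was less stable, with 2 genes called without control replicate 2 and 3 without control replicate 3. Goblet cell markers fell for 4 of 5 genes (median -2.69), with a sum of 3295 to 4049 in mutant villi and 21591 to 23472 in control villi. By qPCR of whole duodenum at P5, the study found the goblet cell marker *Muc2* unaltered. In the whole-intestine villi of these arrays, *Muc2* changed by -2.69. Paneth cell markers rose for 2 and fell for 2 of 5, 1 of 6 macrophage markers fell, and none of 5 smooth muscle markers was called. Leaving out control replicate 3 or any 1 mutant replicate left 1 Paneth marker that rose. The part of these shifts in the *Aqp8* result was not tested.

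**Figure D2:**
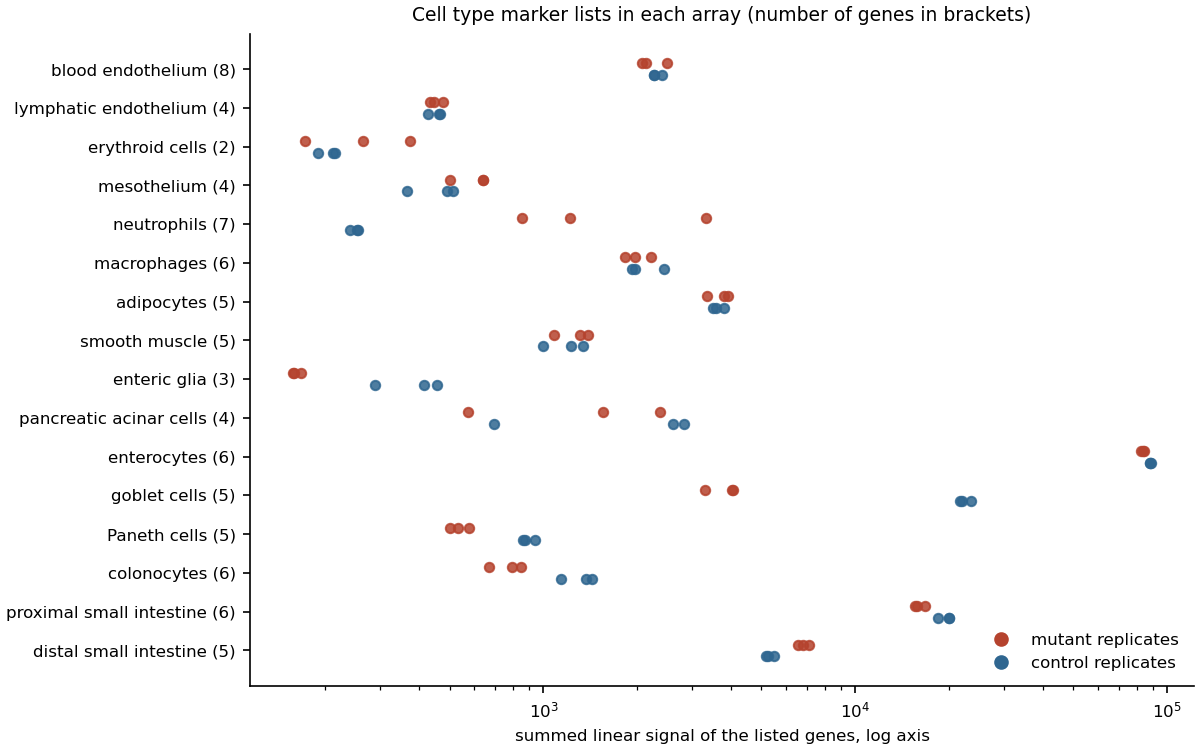
Summed linear signal of the genes in each cell type marker list (horizontal log axis) in the 3 mutant (upper row, red) and 3 control (lower row, blue) replicates. Blood and lymphatic endothelium overlap between the genotypes, goblet cell markers lie at 3295 to 4049 in mutant and 21591 to 23472 in control villi, and neutrophil markers lie at 854 to 3330 in mutant and 240 to 254 in control villi.

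The other classical channels were not called on all 6 arrays without further terms. *Aqp4*, a basolateral water channel of epithelia and the main aquaporin of glia, had log2 signals of 5.71, 6.04 and 5.99 in mutant villi and 5.97, 6.38 and 6.35 in control villi. Its values overlapped between the genotypes, and replicate 1 was the lowest in either group. The change was -0.32 (95% interval -0.63 to -0.01, adjusted p = 0.16 from limma), and it was called without control replicate 1 (-0.45, adjusted p = 0.045). It was called as well with the Y-linked signal as a covariate (-0.35, adjusted p = 0.019). Of 3 glial markers measured, 1 fell (*S100b*, -2.06, adjusted p = 0.00043 from limma), and the part of glia in the *Aqp4* value was not tested. *Aqp2*, the vasopressin-regulated channel of the kidney collecting duct, had 6.09, 6.29 and 6.12 in mutant villi and 6.13, 6.12 and 6.23 in control villi, a change of 0.01 (95% interval -0.18 to 0.20, adjusted p = 0.97). *Aqp5*, the apical channel of secretory glands, had 6.64, 6.75 and 6.59 in mutant villi and 6.69, 6.64 and 6.25 in control villi, a change of 0.13 (95% interval -0.15 to 0.42, adjusted p = 0.53). The values of both genes overlapped between the genotypes.

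None of the aquaglyceroporins was called either. *Aqp7*, the glycerol channel of adipocytes and of the villus surface, had 11.95, 12.27 and 11.96 in mutant villi and 11.81, 11.88 and 11.92 in control villi. The mutant values all lay above the control values, by as little as 0.03, and the change was 0.19 (95% interval -0.05 to 0.43, adjusted p = 0.27 from limma). None of 5 adipocyte markers was called, with sums of 3355 to 3894 in mutant villi and 3485 to 3790 in control villi. These sums came almost wholly from a single bright marker, since the other 4 had mean signals below the array median. They therefore say little about adipocytes. *Aqp3*, a basolateral channel for water and glycerol in epithelia, had 7.05, 7.22 and 6.79 in mutant villi and 6.77, 6.72 and 6.81 in control villi. Mutant replicate 3 fell among the control values, and the change of 0.25 (95% interval -0.01 to 0.51, adjusted p = 0.18 from limma) was called without that replicate (0.37, adjusted p = 0.038). *Aqp9*, the glycerol and urea channel of liver and leukocytes, had 4.22, 4.35 and 5.09 in mutant villi and 4.38, 4.28 and 4.77 in control villi, a change of 0.08 (95% interval -0.45 to 0.61, adjusted p = 0.87). Replicate 3 was the highest in either group. Neutrophil markers, with 5 of 7 called higher (median 1.71), summed to 854 to 3330 in mutant villi and 240 to 254 in control villi. Without each control replicate in turn, 3 of them were called. The highest sum was in mutant replicate 3, which also had the highest *Aqp9* signal, and the part of neutrophils in the *Aqp9* values was not tested.

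*Aqp11* had log2 signals of 10.50, 10.38 and 10.48 in mutant villi and 10.44, 10.29 and 10.35 in control villi, which overlapped. Its change was 0.09 (95% interval -0.08 to 0.27, adjusted p = 0.48 from limma). Across the 7 members that were not called, the 95% intervals ran from -0.63 to 0.61, so a 2-fold change lay outside the interval of each. The mean signals of *Aqp2*, *Aqp4* and *Aqp9* were below the array medians. Signals of different probe sets depend on their probes, and the levels of the members were not compared with one another.

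Of the 12 family symbols in the annotation, 3 were outside the 9 genes. *Aqp12*, a channel known from pancreatic acinar cells, had 6.37, 6.34 and 6.10 in mutant villi and 5.89, 5.98 and 5.97 in control villi, without overlap (change 0.32, adjusted p = 0.047 from limma). When 1 replicate was left out, it was called only without mutant replicate 3 (adjusted p from 0.1 to 0.15 otherwise). None of 4 acinar markers measured was called, and their sums of 574 to 2361 in mutant villi and 694 to 2820 in control villi varied among replicates of either genotype. *Mip*, the aquaporin of the eye lens, had 4.97, 5.21 and 5.09 in mutant villi and 5.27, 5.25 and 5.22 in control villi (change -0.16, adjusted p = 0.26). *Aqp6*, an anion-permeable member of kidney vesicles, had 4.51, 4.28 and 4.16 in mutant villi and 4.36, 4.19 and 4.01 in control villi (change 0.13, adjusted p = 0.54).

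**Figure D3:**
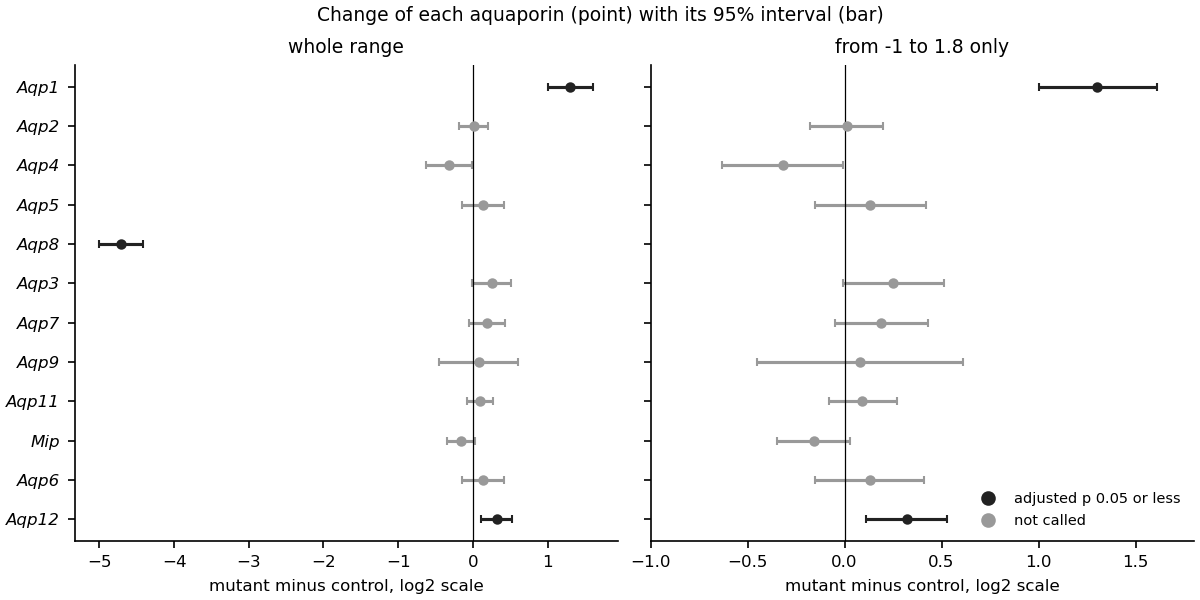
Mutant minus control difference on the log2 scale (horizontal axis) for the 9 aquaporins and the 3 other family symbols, with 95% intervals, over the whole range (left) and enlarged (right). Black points mark genes that were called, and *Aqp8* at -4.71 and *Aqp1* at 1.30 stand apart from the rest, which lie between -0.32 and 0.32.

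Next, the genes whose pattern lay nearest to *Aqp8* and *Aqp1* were sought. Likeness was the root mean square distance over the 6 arrays between log2 signals, each taken relative to its own control mean, and it has no test. This distance depends mostly on the size of the change, so the genes nearest to *Aqp8*, the largest fall, are themselves large falls. Nearest to *Aqp8* was *Nox4*, a hydrogen peroxide-producing NADPH oxidase, at a distance of 0.53, with 5.38, 5.36 and 5.75 in mutant villi and 9.53, 9.40 and 9.46 in control villi. Its signal was 15.6-fold lower in mutant villi. The next were *Gatm*, the first enzyme of creatine synthesis, at 0.74 (12.9-fold lower), and *Mptx1*, a mucosal pentraxin, at 0.90 (11.3-fold lower). For *Aqp1*, the nearest were *D17H6S56E-5* at 0.08, *Bex1* at 0.09 and *Tkt* at 0.12. *Tkt*, the transketolase of the pentose phosphate pathway, had 10.66, 10.71 and 10.54 in mutant villi and 8.95, 9.39 and 9.28 in control villi. In *Aqp1* and all 3 genes, control replicate 1 was the lowest of the 6 arrays.

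**Figure D4:**
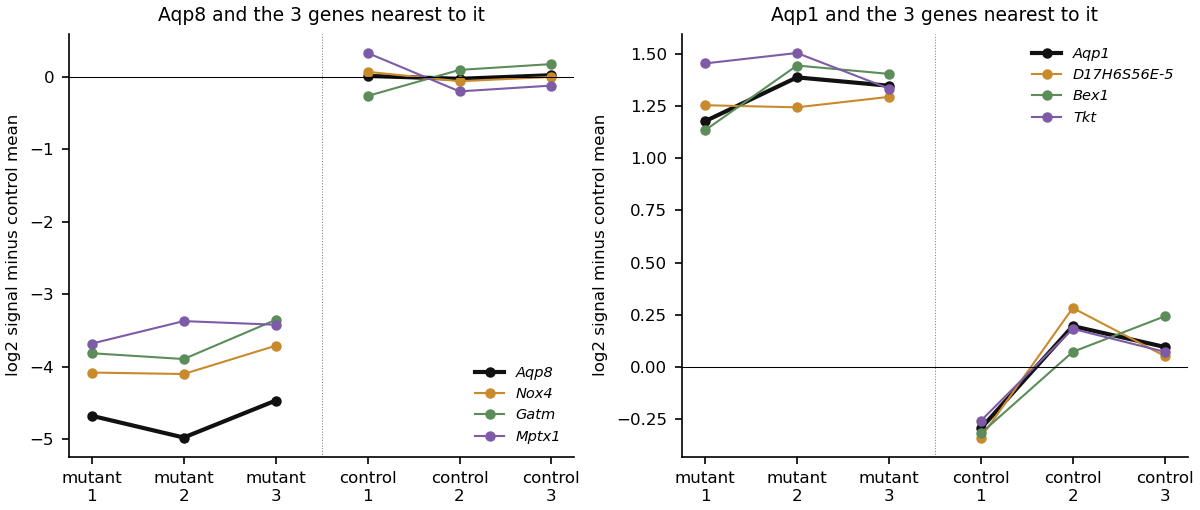
Log2 signal minus the control mean of the same gene (vertical axis) in each array for *Aqp8* (left) and *Aqp1* (right), black, with the 3 nearest genes in colour. The mutant values of *Aqp8* lie below those of *Nox4*, *Gatm* and *Mptx1*, while *Aqp1* runs close to its 3 nearest genes, at distances of 0.08 to 0.12.

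The genes beside *Aqp8* and *Aqp1* on their chromosomes were compared as well, chosen after the values had been seen. In the RefSeq order of genes (GRCm38.p6), *Lcmt1*, a methyltransferase that modifies a protein phosphatase, lies next to *Aqp8* on the lower-coordinate side and had means of 7.71 in mutant and 8.34 in control villi (change -0.64, adjusted p = 0.007 from limma). The next gene on that side, *Arhgap17*, and the 2 on the other side, *Zkscan2* and *Hs3st4*, changed by 0.17, 0.04 and 0.03 and were not called. None of the 4 genes nearest to *Aqp1* was called, with changes from -0.09 to 0.10. *Aqp3* and *Aqp7* are adjacent on chromosome 4, and *Aqp2*, *Aqp5* and *Aqp6* are adjacent on chromosome 15; none of these was called.

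Water follows ions and solutes, and lists of the transporters, signals and enzymes that act with aquaporins were therefore examined. As with the cell type lists, the shares over all probe sets are a low comparison for lists of bright genes. In the fit of bright probe sets alone, 5257 of 15097 were called. Of the genes of fluid secretion, 6 of 10 rose, none was called lower and the median change was 0.80. These compare with 8.04% of probe sets that rose and a median of 0.00 over all genes. The other 4 were not called and changed in both directions. *Slc4a4*, a basolateral bicarbonate transporter, had 9.16, 9.06 and 9.26 in mutant villi and 7.47, 7.82 and 7.74 in control villi (change 1.48, adjusted p = 0.00015 from limma). *Cftr*, the apical chloride channel of secretory epithelium, had 9.65, 9.15 and 9.22 in mutant villi and 7.60, 7.93 and 8.09 in control villi (change 1.47, adjusted p = 0.00094). *Clcn2*, a further chloride channel, rose by 1.32 (adjusted p = 0.0003). The same count was obtained without each replicate in turn.

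Salt and sugar absorption went in both directions, with 2 genes higher, 3 lower and 6 not called of 11 measured, against 8.04% of all probe sets higher and 8.82% lower. *Scnn1g*, a subunit of the epithelial sodium channel, had 5.22, 5.43 and 5.40 in mutant villi and 6.96, 7.40 and 7.33 in control villi (change -1.88, adjusted p = 0.00011 from limma). The other subunits of this channel in the list were not called. The sodium-hydrogen exchangers diverged, since *Slc9a2* rose by 1.76 (adjusted p = 4.2e-05) and *Slc9a3*, the main apical exchanger, fell by 0.69 (adjusted p = 0.0019). Without mutant replicate 1, only *Slc9a2* remained of the genes that rose. Of 4 guanylin genes, *Guca2a*, the hormone guanylin that acts on chloride secretion, rose by 1.58 (adjusted p = 0.0013), and *Prkg2*, a cGMP-dependent kinase, fell by 0.77 (adjusted p = 0.0013). Among 8 genes of hormone receptors and their effectors, 3 rose and none fell (8.04% and 8.82% of all probe sets). They were *Vipr1*, a receptor for vasoactive intestinal peptide (1.70, adjusted p = 0.00021), the aldosterone-induced kinase *Sgk1* (1.14, adjusted p = 0.001) and the vasopressin receptor *Avpr1a* (0.60, adjusted p = 0.0034). The mean signals of *Avpr1a*, 5.64 in mutant and 5.04 in control villi, were below the array medians.

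The remaining lists concern the other solutes of aquaporins. For glycerol and triglycerides, 4 of 13 genes rose and 4 fell (8.04% and 8.82% of all probe sets), including *Gpd1l*, a glycerol-3-phosphate dehydrogenase (-0.95, adjusted p = 0.0012 from limma), the lipase *Lpl* (0.78, adjusted p = 0.0014) and the acyltransferase *Mogat2* (-0.56, adjusted p = 0.003). Only 3 of the 4 that fell were called when any 1 replicate other than mutant replicate 1 was left out. In urea and ammonia handling, 3 of 10 rose and 2 fell, to be read against the same shares, as are the next lists. *Arg2*, a mitochondrial arginase, was 6.74, 7.05 and 5.81 in mutant villi and 4.10, 4.35 and 3.78 in control villi (change 2.46, adjusted p = 0.0013), whereas the urea cycle enzymes *Otc* (-0.65, adjusted p = 0.0041) and *Cps1* (-0.54, adjusted p = 0.0095) fell. The count of risen genes in this list was 1 when control replicate 2 or 3 or mutant replicate 1 was left out. Among 8 genes of hydrogen peroxide production and removal, the glutathione peroxidase *Gpx2* rose by 3.11 (adjusted p = 9.8e-05), and 3 fell, with *Nox4* first, though only 1 or 2 of these were called when any replicate was left out. *Gpx1*, a ubiquitous relative of *Gpx2*, fell by 0.38 (adjusted p = 0.015), but was not called when control replicate 2 or 3 or mutant replicate 2 was left out (adjusted p of 0.053 to 0.054). In the osmotic stress response, 3 of 8 genes rose and 1 fell, and 1 or 2 rose when any replicate was left out. The taurine transporter *Slc6a6* rose by 0.61 (adjusted p = 0.0021) in every setting that left out 1 replicate. *Stk39*, a kinase that regulates chloride cotransporters, rose by 0.42 (adjusted p = 0.044) but was called only without mutant replicate 3 when 1 replicate was left out, and the chaperone *Hspa4l* fell by 0.38 (adjusted p = 0.014) but not without control replicate 2 (adjusted p = 0.058).

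**Figure D5:**
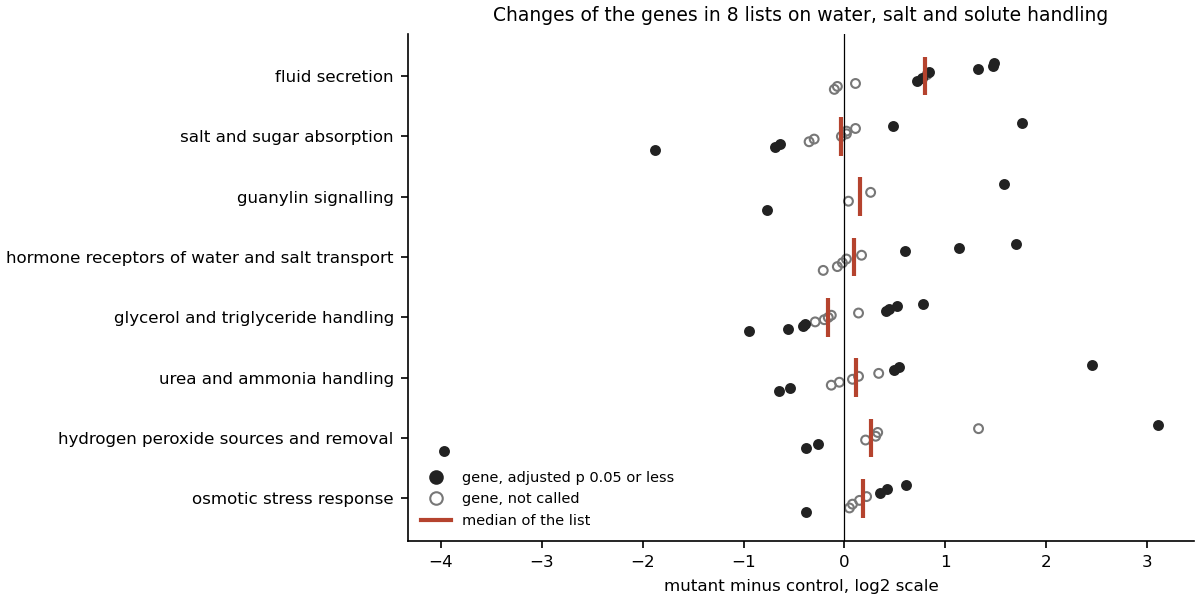
Mutant minus control difference on the log2 scale (horizontal axis) of each gene in 8 lists, filled where the adjusted p was 0.05 or less and open otherwise, with the median of each list in red. The median of the fluid secretion list is 0.80, and the other medians lie between -0.16 and 0.26.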

How the data were processed

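Total RNA of villi was biotin-labelled with a whole-transcript kit, and each replicate had its own Affymetrix array. The authors deposited log2 signals with 2 decimals for every probe set, and the sources used here do not give their background correction, summarisation or normalization. The 6 arrays, whose number limits the precision, had medians of 6.24 to 6.30.

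Genes were named from the platform annotation, in which 21789 probe sets had 1 symbol, 1621 several and 6767 none, and probe sets without a single symbol stayed in the fit and named no gene. Mutant and control arrays were compared by lmFit and eBayes of limma 3.58.1 (R 4.3.3) on the deposited values, and p-values were adjusted by Benjamini-Hochberg across the 30177 probe sets, and the procedure was tested on simulated data. Calls are at an adjusted p of 0.05 or less. No filter was applied and no sample was left out. The study counts the profiled samples as littermates, but the labels tie no replicate to an animal and 2 control replicates held both *Xist* and Y-linked signal, so p-values may measure a spread other than that between single pups. Members, gene lists and motifs were chosen with earlier results of these data known. Named were all members, *Trpm7*, the 3 other family symbols, for each member called at 2-fold the 3 nearest genes, and up to 3 called genes with the largest change per list. For the goblet, neutrophil, macrophage, Paneth and regional lists, only counts, medians or sums are given, apart from the change of *Muc2*. Sums over marker lists are of linear signals. Promoters are RefSeq windows of 250 bases (GRCm38.p6). Tables and figures were made with pandas 2.3.3 and matplotlib 3.10.9 in Python 3.11.15.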

Additional observations from a re-analysis of the deposited data

How the results depend on the processing

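*Aqp8* and *Aqp1* kept their direction and their call under all 17 alternatives tried for each, with changes from -4.83 to -4.28 for *Aqp8* and from 1.13 to 1.60 for *Aqp1* (adjusted p at most 0.005 and 0.0083 from limma). The count of members called stayed at 2 or became 3, and that at 2-fold was 2 throughout. It also stayed at 2 with an adjusted p of 0.01 or a change of 1.5-fold. The third member was *Aqp4* with the replicate number as a block (-0.32, adjusted p = 0.035), without control replicate 1, or with Y-linked transcripts as a covariate (-0.35, adjusted p = 0.019), and *Aqp3* without mutant replicate 3. With control replicate 1 as the only control, *Aqp4* changed by -0.06. The covariate, control replicate 1 as the only control, and the leaving out of replicates for the lists, were chosen after seeing the data, because *Xist* and Y-linked signal occurred together in control replicates 2 and 3. Averaging control replicates 2 and 3 changed no call of a member. These 2 arrays were also the most alike, with a median absolute difference of 0.09. Other pairs of arrays within a group differed by 0.11 to 0.13. The labels do not say whether control replicates 2 and 3 are independent.

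Small changes that were not called turned sign for *Aqp2* under quantile normalization (-0.03) and centring on the array median (-0.04), and for *Aqp5* with control replicate 1 alone (-0.03). Leaving out 1 replicate gave -0.06 to 0.04 for *Aqp2*, -0.01 to 0.21 for *Aqp5* and -0.19 to 0.24 for *Aqp9*. Deviations from the group means correlated at 0.174, 0.039 and 0.119 between same-numbered replicates of the genotypes. Between differently numbered replicates, the correlations ran from -0.162 to 0.085. These weak values do not settle whether the numbers pair littermates. The labels name no pairs, so the main fit used none. With the block, 4957 probe sets were called, against 5088 without it. Centring on the median moved the median change to -0.05 and the share of calls that rose to 36.6%, against 47.7% on the deposited values. Leaving out dim probe sets removed *Aqp2*, *Aqp4* and *Aqp9*. The probe set with the lowest mean could not be used as an alternative, since each member had 1.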
